A study of Mus musculus with 6 samples.

Results

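The Notch genes followed here were the receptors Notch1, Notch2, Notch3 and Notch4, the ligands Dll1, Dll4 and Jag1, and the target genes Hes1, Hey1 and Heyl. They were taken by name as a fixed list, and the 10 genes were found among the 18089 genes of the deposited table. The libraries came from ischemic gastrocnemius muscle of adult male C57BL/6 mice collected 7 days after hindlimb ischemia (HLI), in which a segment of the left femoral artery is ligated and removed. The groups were 3 wild-type (WT) mice and 3 Gpr174-/Y mice, which lack GPR174, a G-protein-coupled receptor for lysophosphatidylserine whose gene is on the X chromosome, in every cell of the body. Every library was thus from an operated limb at 1 time point, and no uninjured muscle was part of this comparison. The comparison asks which transcripts of the ischemic muscle differ with the loss of GPR174.

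Notch is a signaling system between touching cells. A ligand on the surface of a cell, of the Delta-like or Jagged family, pulls on a Notch receptor of its neighbor, the receptor is cut by ADAM10 and then by gamma-secretase, and the freed intracellular part joins the DNA-binding protein RBPJ and a Mastermind coactivator to switch on genes of the Hes and Hey families. In growing vessels DLL4 on the leading tip cell restrains sprouting of the cells behind it, NOTCH3 is known for mural cells around arteries, and in muscle Notch signals keep satellite cells, the muscle stem cells, in an undifferentiated state. These are background and not results of these data.

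Each gene's level was the sum of the estimated counts deposited for its transcripts. Total counts were 18417077 to 18695013 in the WT libraries and 19173036 to 19394469 in the Gpr174-/Y libraries, where 3 counts, taken as the smallest detectable number, correspond to a CPM (the count scaled to a common library total) of 0.155 to 0.163, a limit for counting error only. For Gpr174 itself the WT libraries held 8, 2 and 5 counts, and the Gpr174-/Y libraries 1, 0 and 0. The libraries were not evenly spaced. Among 7681 genes with a mean of at least 20 CPM, the value of replicate 2 fell between those of replicates 1 and 3 in 82.0% for WT and 69.9% for Gpr174-/Y muscles. Counts of Gpr174-/Y replicates 1 and 2 differed by a chi-square per degree of freedom of 1.85, the closest pair to the value of 1 expected from counting noise, against 12.1 to 70.9 between WT libraries. WT replicate 3 was the WT library nearest to the Gpr174-/Y libraries. The labels do not say that the libraries of a group were from separate animals, although the methods give 3 mice per group, so the p-values describe the spread between these libraries. With replicates 1 and 3 of each group alone, 0 genes passed an adjusted p of 0.05 in edgeR, and 5026 genes, with 4 of the Notch genes among them, had an unadjusted p under 0.05.

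For the receptors and ligands that passed the test below, the sequence around the gene start is shown so that the opposite members of each class can be set side by side. The windows run from 250 bases before to 50 bases after the gene start in RefSeq on GRCm38.p6, 5′ to 3′ on the strand of the gene, and windows were found for 7 of the 10 members, all except Hes1, Hey1 and Heyl. Capitals mark matches on either strand to an RBPJ core (TGGGAA), an AP-1 site (TGANTCA), an ETS core (CAGGAA), a GC box (GGGCGG) or a TATA box (TATAAA). The windows were chr17:34564045-34564344 (plus strand) for Notch4, chr3:98013288-98013587 (plus strand) for Notch2, chr2:119325534-119325833 (plus strand) for Dll4 and chr2:137116471-137116770 (minus strand) for Jag1.
Notch4: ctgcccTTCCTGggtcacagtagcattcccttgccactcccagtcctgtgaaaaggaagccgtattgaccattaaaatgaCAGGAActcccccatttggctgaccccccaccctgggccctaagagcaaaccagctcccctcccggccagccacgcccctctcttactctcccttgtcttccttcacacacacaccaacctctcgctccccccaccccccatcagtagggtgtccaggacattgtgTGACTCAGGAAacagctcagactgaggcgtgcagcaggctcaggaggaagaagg
Notch2: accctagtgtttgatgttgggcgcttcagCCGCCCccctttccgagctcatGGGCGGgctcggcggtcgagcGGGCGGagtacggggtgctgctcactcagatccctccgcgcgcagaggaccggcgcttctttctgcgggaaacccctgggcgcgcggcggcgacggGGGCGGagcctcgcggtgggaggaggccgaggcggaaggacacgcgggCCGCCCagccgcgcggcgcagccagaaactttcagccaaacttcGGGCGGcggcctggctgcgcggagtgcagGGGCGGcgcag
Dll4: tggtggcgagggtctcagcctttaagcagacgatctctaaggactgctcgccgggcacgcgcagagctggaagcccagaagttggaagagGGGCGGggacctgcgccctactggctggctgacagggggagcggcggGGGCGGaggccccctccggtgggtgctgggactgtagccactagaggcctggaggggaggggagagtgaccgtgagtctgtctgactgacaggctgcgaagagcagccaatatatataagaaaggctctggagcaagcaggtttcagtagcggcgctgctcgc
Jag1: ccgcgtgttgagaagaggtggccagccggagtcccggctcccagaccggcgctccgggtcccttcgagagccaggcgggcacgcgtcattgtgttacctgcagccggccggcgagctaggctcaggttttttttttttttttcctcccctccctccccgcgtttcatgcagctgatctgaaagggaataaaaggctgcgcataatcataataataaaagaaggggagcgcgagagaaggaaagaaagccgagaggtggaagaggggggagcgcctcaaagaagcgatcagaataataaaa

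The Notch4 window, with a GC content of 58.3%, held 3 ETS cores, at bases 7, 81 and 252, and 1 AP-1 site at base 247 that overlaps the last of them and spans the gene start in RefSeq. The gene positions given below are from GENCODE M21, which starts Notch4 at 34564268, before this site. The Notch2 window was the most GC-rich of these, at 73.0%, and held 7 GC boxes. The Dll4 window (63.7% GC) held 2 GC boxes, and the Jag1 window (55.7% GC) matched none of the 5 motifs. The RBPJ core was in 0 of the 8 windows of members and in 25.4% of all 32544 windows in RefSeq. Those 8 windows are all of receptors or ligands and none is of a target gene. An AP-1 site was in 7.79%, an ETS core in 30.5%, a GC box in 35.9% and a TATA box in 13.6% of all windows. A match to letters is a description of the window, and binding at these windows was not measured here.

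The Notch genes did not move together. In edgeR's quasi-likelihood test with Benjamini-Hochberg adjustment over 14395 genes, 6 of the 10 had an adjusted p under 0.05, where 54.6% of all genes tested did. Notch2, Jag1 and Heyl were higher in Gpr174-/Y muscles (3 genes, where 27.0% of all genes were called higher). Notch4, Dll4 and Hey1 were lower (3 genes, where 27.6% of all genes were called lower). Each class of receptors, ligands and targets thus held 1 higher and 1 lower gene. None (0 of the 10) also passed an absolute log2 fold change of 1, which 8.28% of genes did. The groups did not overlap for 7 of the 10, on CPM after scaling by the trimmed mean of M-values (TMM), as for 65.6% of genes tested. Their median log2 fold change was -0.03, beside 0.00 over all genes, and the summed level of the 10 was 477 to 487 CPM in WT and 494 to 496 CPM in Gpr174-/Y libraries. These shares are close to those of all genes tested.

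**Figure D1:**
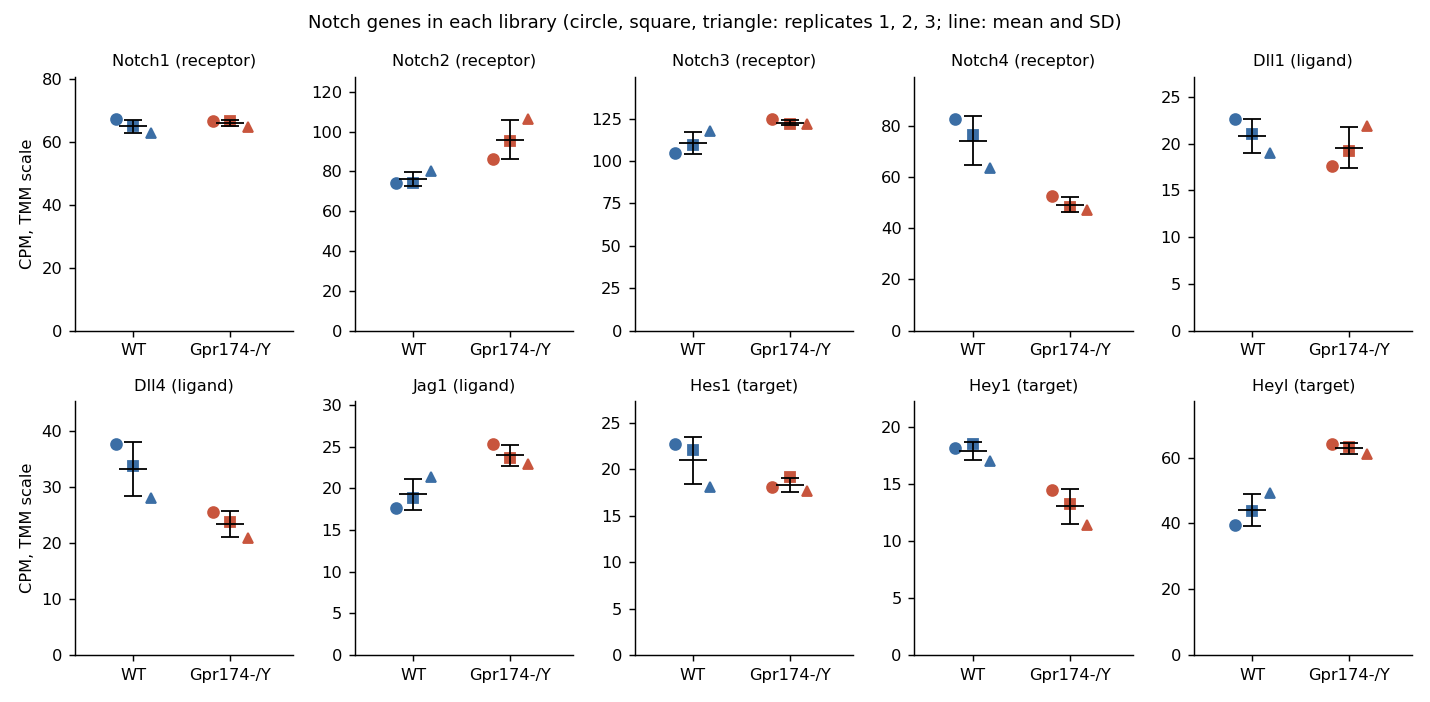
Level of each Notch gene in each library (y axis: CPM on the TMM scale, from 0), with circles, squares and triangles for replicates 1, 2 and 3 and lines for the mean and SD of the 3 libraries of a group. Notch4, Dll4 and Hey1 are lower and Notch2, Jag1 and Heyl higher in every Gpr174-/Y library than in every WT library on this scale, and the groups overlap for Notch1, Dll1 and Hes1.

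All values in the next paragraphs are CPM on the TMM scale, in which counts are divided by a library size corrected for composition, and fold changes are Gpr174-/Y over WT. In whole muscle, fewer cells of a type and less RNA per cell cannot be told apart.

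Notch4, the receptor best known from endothelial cells, lies on chromosome 17 of GRCm38 from 34564268 to 34588503. Its level was 82.6, 76.5 and 63.7 CPM in WT replicates 1, 2 and 3. In Gpr174-/Y replicates 1, 2 and 3 it was 52.5, 48.5 and 47.0 CPM. Every Gpr174-/Y library lay below every WT library, and the lowest WT library, replicate 3, was the closest to them. The mean fell from 74.3 ± 9.65 to 49.3 ± 2.83 CPM (SD, n = 3), a log2 fold change of -0.59 with a standard error (SE) of 0.10 and a 95% interval from -0.83 to -0.35 (adjusted p = 0.0035, edgeR). This was the lowest log2 fold change of the 10 genes, with WT levels 1.51-fold those of Gpr174-/Y muscles.

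Notch2, a receptor expressed in many cell types including satellite cells and myeloid cells, lies on chromosome 3 from 98013527 to 98150361. It was at 74.4, 74.3 and 80.4 CPM in the WT replicates and at 86.5, 95.4 and 106.2 CPM in the Gpr174-/Y replicates. The groups did not overlap, and the Gpr174-/Y libraries spread more widely (SD 9.89 CPM) than the WT libraries (SD 3.52 CPM). The log2 fold change was 0.33 (SE 0.08, 95% interval 0.13 to 0.53, adjusted p = 0.0143, edgeR). Without WT replicate 2 the adjusted p was 0.0636.

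The receptors Notch1 and Notch3 did not pass the threshold. Notch1, a broadly expressed receptor on chromosome 2 from 26457903 to 26516663, was at 67.3, 65.0 and 63.0 CPM in WT and 66.7, 66.6 and 65.0 CPM in Gpr174-/Y replicates. The Gpr174-/Y values fell inside the WT range, and the log2 fold change was 0.02, with a 95% interval from -0.09 to 0.13 (adjusted p = 0.702, edgeR). Notch3, the mural cell receptor on chromosome 17 from 32120820 to 32166852, was at 104.5, 109.5 and 117.4 CPM in WT and 124.5, 121.5 and 121.8 CPM in Gpr174-/Y replicates. Its groups did not overlap, but the log2 fold change of 0.15 (SE 0.06, 95% interval 0.01 to 0.29) had an adjusted p of 0.0638 in edgeR. Without WT replicate 3 it was 0.20 and the adjusted p 0.00671, and with upper-quartile scaling of all libraries the adjusted p was 0.042.

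Among the ligands, Dll4 and Jag1 differed in opposite directions. Dll4, the Delta-like ligand of arterial and tip endothelial cells, lies on chromosome 2 from 119325784 to 119335962. It was at 37.8, 33.9 and 28.2 CPM in WT and 25.5, 23.7 and 20.9 CPM in Gpr174-/Y replicates. In each group replicate 1 was highest and replicate 3 lowest, and WT replicate 3 was the closest to the Gpr174-/Y libraries. The log2 fold change was -0.51 (SE 0.12, 95% interval -0.80 to -0.22, adjusted p = 0.012, edgeR), a mean of 33.3 ± 4.84 CPM in WT against 23.4 ± 2.29 CPM (SD, n = 3).

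Jag1, a Jagged ligand used by endothelial, mural and other cells, lies on chromosome 2 from 137081456 to 137116644. It was at 17.7, 18.8 and 21.4 CPM in WT and 25.4, 23.7 and 22.9 CPM in Gpr174-/Y replicates. The lowest Gpr174-/Y library was above the highest WT library, and the log2 fold change was 0.31 (SE 0.08, 95% interval 0.11 to 0.51, adjusted p = 0.0179, edgeR). This call depended on single libraries. The adjusted p was 0.0657 without WT replicate 2, 0.0631 without Gpr174-/Y replicate 1 and 0.0562 without Gpr174-/Y replicate 2.

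Dll1, the Delta-like ligand known from muscle development, lies on chromosome 17 from 15367354 to 15376872. It was at 22.6, 21.0 and 18.9 CPM in WT and 17.6, 19.2 and 21.9 CPM in Gpr174-/Y replicates. The ranges of the groups largely coincided, and the log2 fold change of -0.09 had a 95% interval from -0.34 to 0.15 (adjusted p = 0.482, edgeR).

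Among the targets, Heyl and Hey1, both bHLH repressors of the Hey family, also differed in opposite directions. Heyl, known from mural cells and satellite cells, lies on chromosome 4 from 123233556 to 123249875. Its level was 39.5, 43.8 and 49.2 CPM in WT and 64.3, 63.3 and 61.1 CPM in Gpr174-/Y replicates. The Gpr174-/Y libraries were close together and all above the WT libraries. The mean rose from 44.1 ± 4.87 to 62.9 ± 1.61 CPM (SD, n = 3), the highest log2 fold change of the 10 at 0.51 (SE 0.08, 95% interval 0.32 to 0.71, adjusted p = 0.00287, edgeR).

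Hey1, a target known for arterial endothelium, lies on chromosome 3 from 8663359 to 8667256. It was at 18.2, 18.6 and 17.0 CPM in WT and 14.5, 13.2 and 11.4 CPM in Gpr174-/Y replicates, with no overlap. The log2 fold change was -0.46 (SE 0.10, 95% interval -0.69 to -0.23, adjusted p = 0.00718, edgeR). Hes1, a target of Notch and of other pathways on chromosome 16 from 30064384 to 30067796, was at 22.8, 22.1 and 18.1 CPM in WT and 18.1, 19.2 and 17.7 CPM in Gpr174-/Y replicates. WT replicate 3 lay within the Gpr174-/Y range, and the log2 fold change of -0.19 had a 95% interval from -0.42 to 0.04 (adjusted p = 0.13, edgeR). Without WT replicate 3 Hes1 was at -0.28 with an adjusted p of 0.00605. For each of the 6 genes called, WT replicate 3 was the WT library nearest to the Gpr174-/Y libraries.

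The order of the levels was read from the deposited TPM, which are scaled for transcript length and so can be compared between genes of a library. In WT muscles Hes1 was highest, with a mean of 25.9 TPM, followed by Notch3 at 23.6, and their ranges overlapped. Notch4 (19.3), Dll4 (17.6), Heyl (16.9), Hey1 (14.2), Notch2 (12.5) and Notch1 (11.8) followed in a chain in which each range overlapped the next. Dll1 (10.2) and Jag1 (5.98) were lowest, and each lay apart from its neighbors in that order.

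In Gpr174-/Y muscles the order began with Notch3 at 34.3 TPM, Heyl at 31.4, Hes1 at 29.9 and Notch2 at 20.6, none of which overlapped the next. Notch4 (16.8), Dll4 (16.4) and Notch1 (15.7) formed a chain of overlapping ranges, as did Hey1 (13.6) and Dll1 (12.5). Jag1 was again lowest, at 9.50 TPM. Heyl ranked 5 of 10 in WT and 2 of 10 in Gpr174-/Y muscles. Notch4 ranked 3 of 10 in WT and 5 of 10 in Gpr174-/Y muscles. TPM are shares of a library's total, so these ranks compare genes within a group.

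The scaling bore on these results. The Gpr174-/Y libraries had TMM factors of 1.08 to 1.12 and the WT libraries 0.873 to 0.952, and when counts were divided by their totals alone the median log2 fold change of all genes was 0.28. On that scale 5 Notch genes were called higher and 1 lower, where 64.7% of all genes tested were called. Of all genes called 78.4% were higher, against 49.5% with TMM. Notch1 was then at 0.30 (adjusted p = 0.00175, edgeR) and Notch3 at 0.42 (adjusted p = 0.00388). Notch4 was still lower, at -0.31 (adjusted p = 0.0103), while Dll4 at -0.23 (adjusted p = 0.0705) and Hey1 at -0.19 (adjusted p = 0.0943) were no longer called. Dll1 and Hes1, not called on either scale, turned to 0.19 and 0.08. The calls for Notch2, Jag1, Heyl and Notch4 held on both scales.

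**Figure D2:**
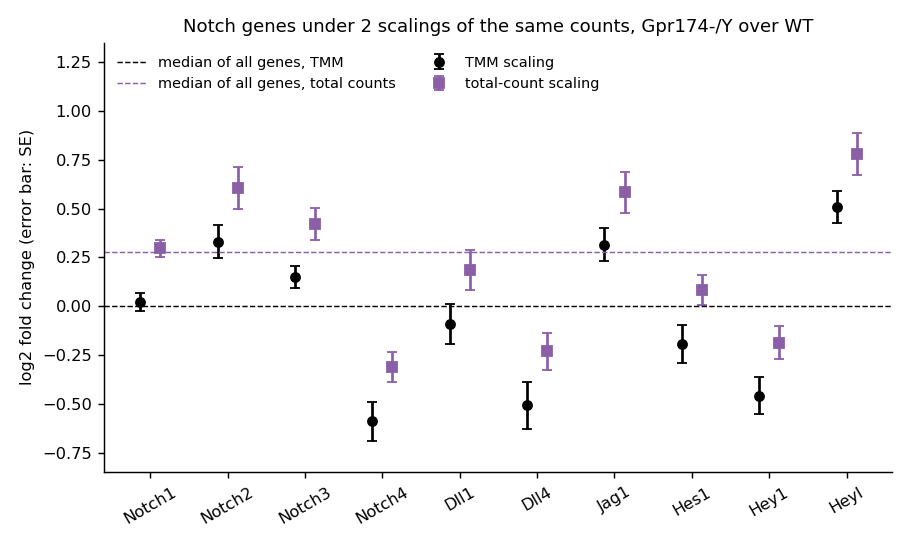
Log2 fold change (Gpr174-/Y over WT, y axis) of each Notch gene from edgeR with TMM scaling (black circles) and with total counts (purple squares), with bars for the SE and dashed lines for the median of all genes under each scaling. All 10 genes are higher with total counts by about the shift of the median, 0.28, and Dll1 and Hes1 lie on the other side of 0.

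Several genes are listed with more than 1 transcript, and for Notch4 the split among them differed between libraries. RefSeq lists a curated and a predicted transcript of Notch4. The predicted transcript took 3.76%, 19.9% and 39.2% of the estimated Notch4 reads in WT replicates 1, 2 and 3. In the Gpr174-/Y replicates it took 0.000911%, 0.0573% and 3.57%. The curated transcript alone was at 79.5, 61.3 and 38.8 CPM in WT and 52.5, 48.5 and 45.3 CPM in Gpr174-/Y replicates, so that the groups overlapped for it. The lower Notch4 level is thus a result for the gene as a whole, and for the curated transcript WT replicate 3 was the lowest of all libraries. Jag1 has a predicted transcript at 2.37 to 4.66% of its reads in WT and 5.69 to 8.37% in Gpr174-/Y libraries. The predicted transcript of Dll4 took 14.4 to 27.4% of its reads over all libraries, and the curated transcript of Dll1 39.3 to 65.7%. Notch1, Notch2 and Heyl are listed with 1 transcript each, so no split can be seen for them.

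**Figure D3:**
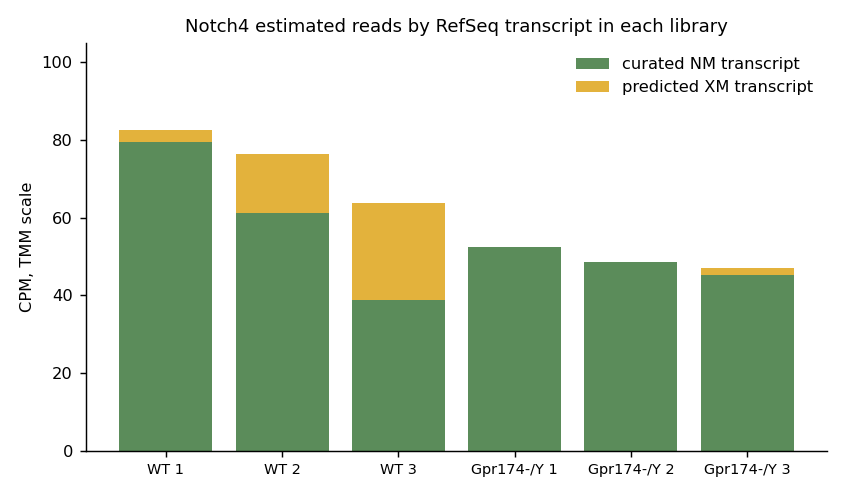
Estimated reads of Notch4 in each library (y axis: CPM on the TMM scale, from 0), split into the curated (green) and the predicted (yellow) RefSeq transcript. The predicted share is 39.2% in WT replicate 3 and at most 3.57% in the Gpr174-/Y libraries, and the sum is lower in every Gpr174-/Y library.

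Genes on the opposite strand overlap Notch1, Notch3, Notch4, Dll1 and Dll4 in GENCODE M21, and the strand use of the counting is not given in the sources used here, so reads of those partners cannot be told apart. Notch2 overlaps unclassified transcribed regions on its own strand. Jag1, Hes1, Hey1 and Heyl overlap no other gene there.

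The rest of the pathway was read from a list of 45 genes, of which 41 passed the filter on low counts. Of these, 29 were called, 19 higher and 10 lower in Gpr174-/Y muscles, with a median log2 fold change of 0.14, where 54.6% of all genes were called, 27.0% higher and 27.6% lower. The split changed with the scaling, and higher genes outnumbered lower ones on both scales. With total counts 25 were higher and 2 lower, where 64.7% of all genes tested were called and 78.4% of those were higher. Dll3, Hes5, Hes7 and Helt were too low to be tested.

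Of the 3 other ligands tested, 2 were lower. Jag2, the Jagged ligand of the same family as Jag1, was at 57.5, 58.0 and 60.0 CPM in WT and 40.8, 38.6 and 37.8 CPM in Gpr174-/Y replicates. The groups were far apart for their spread, and Jag2 had a log2 fold change of -0.58 (SE 0.05, adjusted p = 0.000717, edgeR), against 0.31 for Jag1. Dlk1, a Delta-like protein without the receptor-binding domain of the other ligands and known from growing and regenerating muscle, was at 168, 169 and 163 CPM in WT and 86.0, 71.2 and 51.3 CPM in Gpr174-/Y replicates. With a log2 fold change of -1.26 (SE 0.17, adjusted p = 0.00175), Dlk1 was 1 of 2 genes of the pathway past both thresholds. Dtx1, a Deltex ubiquitin ligase, was the other (-1.04, SE 0.29, adjusted p = 0.0213), from only 17 to 22 counts in WT and 9 to 16 in Gpr174-/Y libraries. Its raw counts in WT replicates 2 and 3 were 17, and Gpr174-/Y replicate 3 had 16. The call for Dtx1 was lost with total counts (adjusted p = 0.0517), with DESeq2's Wald test (0.0557), and without WT replicate 1 (0.0589), WT replicate 2 (0.0577), Gpr174-/Y replicate 1 (0.0701) or Gpr174-/Y replicate 2 (0.0836). Dlk1 was still called with total counts, but at -0.99 (adjusted p = 0.00218, edgeR) it fell short of the fold threshold of 1.

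Of the 5 genes of receptor glycosylation 3 were higher and 1 lower with TMM scaling, and 4 and 0 with total counts. Lfng, a fringe enzyme that adds sugars to Notch and shifts its preference toward Delta-like ligands, was at 18.7 to 24.0 CPM in WT and 26.6 to 28.1 CPM in Gpr174-/Y libraries (log2 fold change 0.36, SE 0.09, adjusted p = 0.0153, edgeR). Mfng, another fringe enzyme, was at 13.6 to 15.5 CPM in WT and 11.7 to 12.5 CPM in Gpr174-/Y libraries (-0.28, SE 0.08, adjusted p = 0.0172), and with total counts it was at -0.01 (adjusted p = 0.911). Mfng was also not called with DESeq2's Wald test (adjusted p = 0.0517) or without WT replicate 2 (0.0807), Gpr174-/Y replicate 2 (0.0639) or Gpr174-/Y replicate 3 (0.054). Lfng was not called without WT replicate 2 (adjusted p = 0.0566) or Gpr174-/Y replicate 2 (0.0603). Of the 9 cleavage genes 6 were higher and 1, Psenen, lower, against 7 and 0 with total counts. Adam10, the protease of the first ligand-induced cut, was at 68.5 to 76.3 CPM in WT and 92.1 to 93.1 CPM in Gpr174-/Y libraries (0.37, SE 0.05, adjusted p = 0.00219). Of the 13 genes of ligand endocytosis and ubiquitin ligases 6 were higher and 4 lower, against 7 and 0 with total counts. Psenen is outside the rule for named genes and was picked after its values were seen.

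In the nucleus, Rbpj, the DNA-binding partner of all Notch receptors, was at 62.2, 69.5 and 75.6 CPM in WT and 100.9, 102.0 and 106.5 CPM in Gpr174-/Y replicates. Every Gpr174-/Y library was above every WT library, with a log2 fold change of 0.58 (SE 0.08, adjusted p = 0.00165, edgeR). The coactivator Maml1 differed by 0.22 (SE 0.05, adjusted p = 0.00846, and 0.0514 without Gpr174-/Y replicate 2). In all, 3 of the 8 nuclear genes were higher and 1 lower, against 5 and 0 with total counts. The target Nrarp, which feeds back to limit Notch signaling, was at 45.1, 41.2 and 37.0 CPM in WT and 32.4, 30.1 and 26.3 CPM in Gpr174-/Y replicates. Its groups did not overlap either, and its log2 fold change was -0.47 (SE 0.10, adjusted p = 0.00783). Like Hey1, Nrarp was no longer called with total counts (-0.20, adjusted p = 0.0641). Hey2, the remaining Hey gene, was at 0.622 to 1.29 CPM in WT and 0.908 to 1.18 CPM in Gpr174-/Y libraries (0.26, SE 0.29, adjusted p = 0.482). With TMM scaling, Rbpj and the target Heyl were thus higher while the targets Hey1 and Nrarp were lower.

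**Figure D4:**
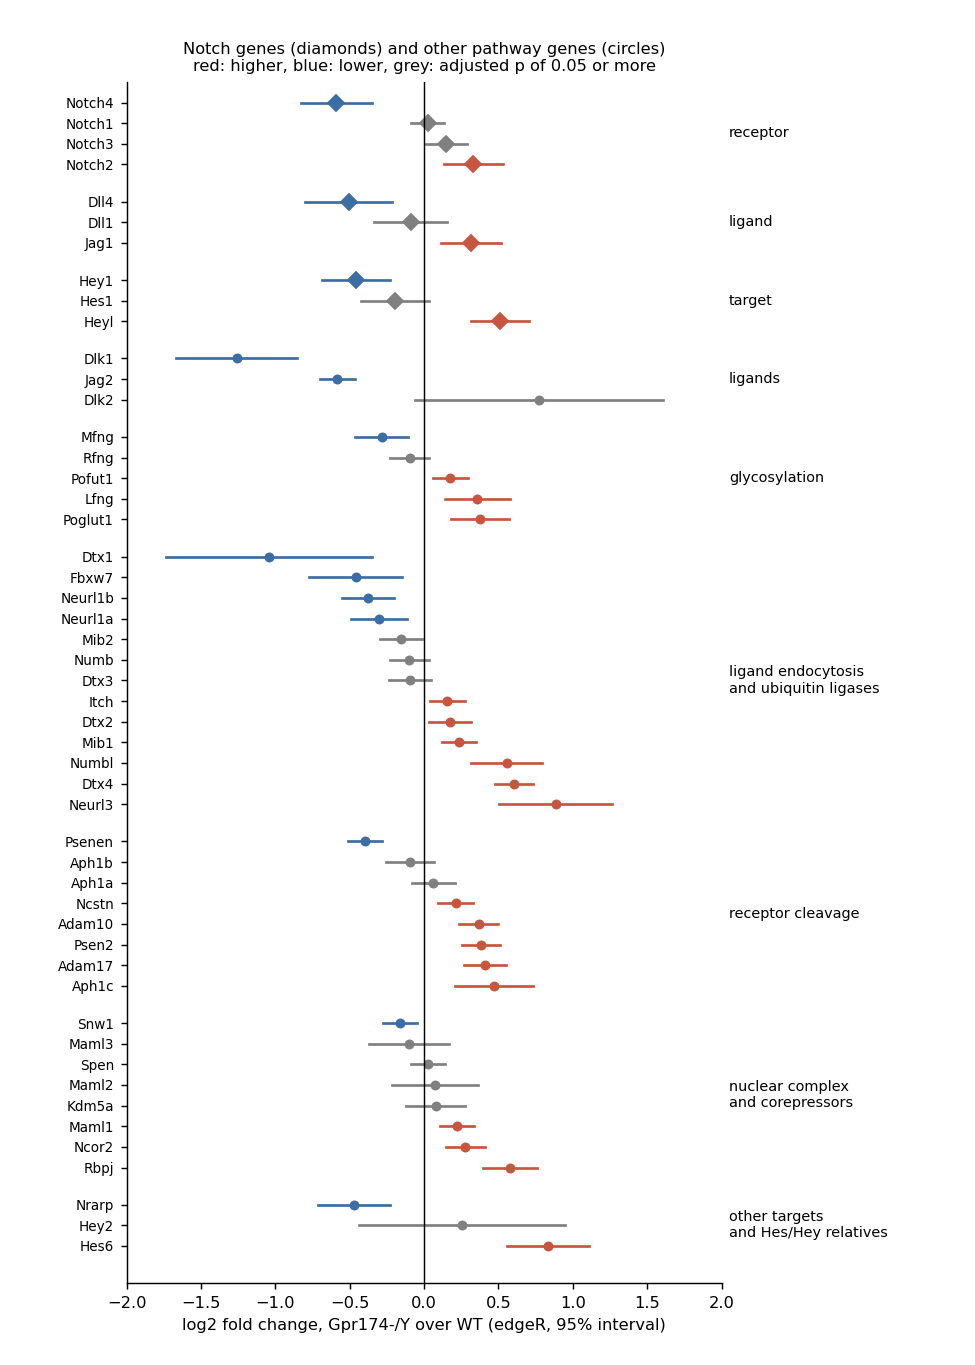
Log2 fold change (x axis, Gpr174-/Y over WT, edgeR with TMM scaling) with its 95% interval for the 10 Notch genes (diamonds) and other pathway genes tested (circles), grouped by role, in red where higher, blue where lower and grey where the adjusted p was 0.05 or more. Each role holds genes on both sides of 0, and Dlk1 lies lowest at -1.26. With total counts all genes lie higher by about 0.28.

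The Notch genes were set beside lists of markers of the cells that ischemic muscle holds, none of which shares a gene with the 10. No marker was at 0 in any library. The counts of markers called can be read against the 27.0% of all genes called higher and the 27.6% called lower. Of 14 endothelial markers, 13 were lower and 1, Vwf, was higher in Gpr174-/Y muscles, with a median log2 fold change of -0.73 and a summed level of 1456 to 1647 CPM in WT and 936 to 1049 CPM in Gpr174-/Y libraries. The tight-junction gene Cldn5 was at -0.97 (SE 0.08, adjusted p = 0.000717, edgeR) and Kdr, which encodes a receptor of vascular endothelial growth factor, at -0.91 (SE 0.11, adjusted p = 0.00132). Of 6 arterial markers only Sox17 was called, at 32.1 to 33.7 CPM in WT and 15.8 to 17.1 CPM in Gpr174-/Y libraries (adjusted p = 0.000312, edgeR), and the list had a median of -0.02. Summed, the arterial list was at 142.8 to 153.1 CPM in WT and 114.7 to 151.2 CPM in Gpr174-/Y libraries, which overlapped. Of 4 venous markers 1 was higher and 2 were lower, Aplnr at -0.83 (adjusted p = 0.00239) and Ephb4 at -0.38 (adjusted p = 0.00134). With total counts Ephb4 was at -0.10 (adjusted p = 0.171) and was not called, 12 of the 14 endothelial markers were lower, and 2 arterial markers were higher with 1 lower. Vwf was picked after its values were seen.

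Since Notch4, Dll4, Hey1 and Nrarp were lower together with the endothelial list, they were also expressed per 1000 counts of the 14 endothelial genes. Notch4 was then at 43.8 to 50.2 in WT and 48.4 to 50.2 in Gpr174-/Y libraries. On this scale the Gpr174-/Y range of Notch4 lay within the WT range. Dll4 was at 22.9, 21.6 and 19.3 in WT and 24.3, 23.6 and 22.4 in Gpr174-/Y replicates, which also overlapped. Hey1 was at 11.1, 11.9 and 11.7 in WT and 13.8, 13.2 and 12.2 in Gpr174-/Y replicates. Nrarp was at 27.4, 26.3 and 25.4 in WT and 30.9, 30.1 and 28.1 in Gpr174-/Y replicates. Neither Hey1 nor Nrarp overlapped on this scale, with the Gpr174-/Y libraries above the WT libraries. The endothelial sum was itself lower in Gpr174-/Y muscles, and on this scale all 10 Notch genes had a higher mean there, so the denominator moves every gene the same way. Ratios to the arterial list were not computed, so these values do not show how Dll4 and Hey1 stood against arterial genes. The ratios given carry no test, and the part of the endothelial content in the lower levels was not tested.

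The markers of mural cells were mixed, with 4 of 10 higher, 5 lower and a median of -0.33 (-0.06 with total counts). Acta2, the smooth muscle actin that myofibroblasts also make, was at 225 to 331 CPM in WT and 569 to 686 CPM in Gpr174-/Y libraries (adjusted p = 0.00139, edgeR). Kcnj8, a pericyte potassium channel gene, had a log2 fold change of -1.12 (SE 0.07, adjusted p = 0.000409). The summed level of this list, in which desmin is shared with muscle fibres, was 6874 to 7610 CPM in WT and 4699 to 5348 CPM in Gpr174-/Y libraries. Without desmin the sum of the other 9 went the other way, from 1229 to 1361 CPM in WT to 1363 to 1500 CPM in Gpr174-/Y libraries. Acta2, higher as given above, is part of that sum. Rgs5, also part of it, was at 388 to 551 CPM in WT and 260 to 278 CPM in Gpr174-/Y libraries. Rgs5 was picked after its values were seen. The direction of the sum thus depends on which genes it holds. Per 1000 counts of the list without desmin, Heyl was at 29.0, 33.5 and 40.0 in WT and 42.9, 43.9 and 44.8 in Gpr174-/Y replicates, so the groups did not overlap on that scale either. Notch3 was at 76.8, 83.9 and 95.6 in WT and 83.0, 84.2 and 89.4 in Gpr174-/Y replicates, inside the WT range. Acta2 is part of this denominator too and was higher in Gpr174-/Y muscles, which lowers both ratios there. Ratios without Acta2 were not computed, so these values do not show how Notch3 stood against the other mural genes.

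Most markers of satellite cells and macrophages were higher, as were Notch2, Jag1 and Heyl. Of 8 satellite cell and myoblast markers, 6 were higher and 1 lower, with a summed level of 252 to 345 CPM in WT and 553 to 591 CPM in Gpr174-/Y libraries. Myog, the myogenic factor of differentiating myoblasts, was at 1.42 (adjusted p = 0.00202, edgeR), and Megf10, a satellite cell receptor gene, at 1.24 (adjusted p = 0.000532). Myog alone was at 71.1 to 130 CPM in WT and 247 to 285 CPM in Gpr174-/Y libraries. The lower marker was Calcr, at -1.08 (adjusted p = 0.00249, edgeR), from 28 to 29 counts in WT and 15 to 19 in Gpr174-/Y libraries. Pax7 was not called, at 0.35 (adjusted p = 0.0515, edgeR). Calcr and Pax7 were named after their values were seen. With total counts 7 of the list were higher and 1 lower. Per 1000 counts of this list, all 10 Notch genes had a lower mean in Gpr174-/Y muscles, as the list's own sum was higher there. The means were 262 in WT and 169 in Gpr174-/Y muscles for Notch2, 65.8 and 42.0 for Jag1, and 150.3 and 110.2 for Heyl. Of 6 regenerating fibre markers 3 were higher, with Tnnt2 at 1.30 (adjusted p = 0.0022) and Chrna1 at 1.14 (adjusted p = 0.000449), and the summed level overlapped (6751 to 8830 CPM in WT and 7807 to 9776 CPM in Gpr174-/Y libraries).

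Of 8 macrophage markers 7 were higher, with Itgam at 1.60 (adjusted p = 0.0018, edgeR), Cd68 at 1.22 (adjusted p = 0.00331) and a summed level of 1090 to 1551 CPM in WT and 2564 to 2569 CPM in Gpr174-/Y libraries. Of 6 fibroblast markers 3 were higher and 3 lower, with a median of 0.18, Fbn1 at 0.90 (adjusted p = 0.00254) and Col1a1 at 0.87 (adjusted p = 0.00916). The lower ones, named after their values were seen, were Lum at -0.81 (adjusted p = 0.000531), Dcn at -0.57 (adjusted p = 0.00148) and Pdgfra at -0.21 (adjusted p = 0.0166). With total counts 3 fibroblast markers were higher and 2 lower, and the groups overlapped for Pdgfra. All 14 markers of mature fibres were lower, with a median of -1.45, Myh2 at -2.80 (adjusted p = 0.00062), Pvalb at -2.34 (adjusted p = 0.00148) and a summed level of 133400 to 191700 CPM in WT and 58590 to 65770 CPM in Gpr174-/Y libraries. With total counts 13 of the 14 mature fibre markers were lower. The part of these cell types in the differences of the Notch genes was not tested.

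**Figure D5:**
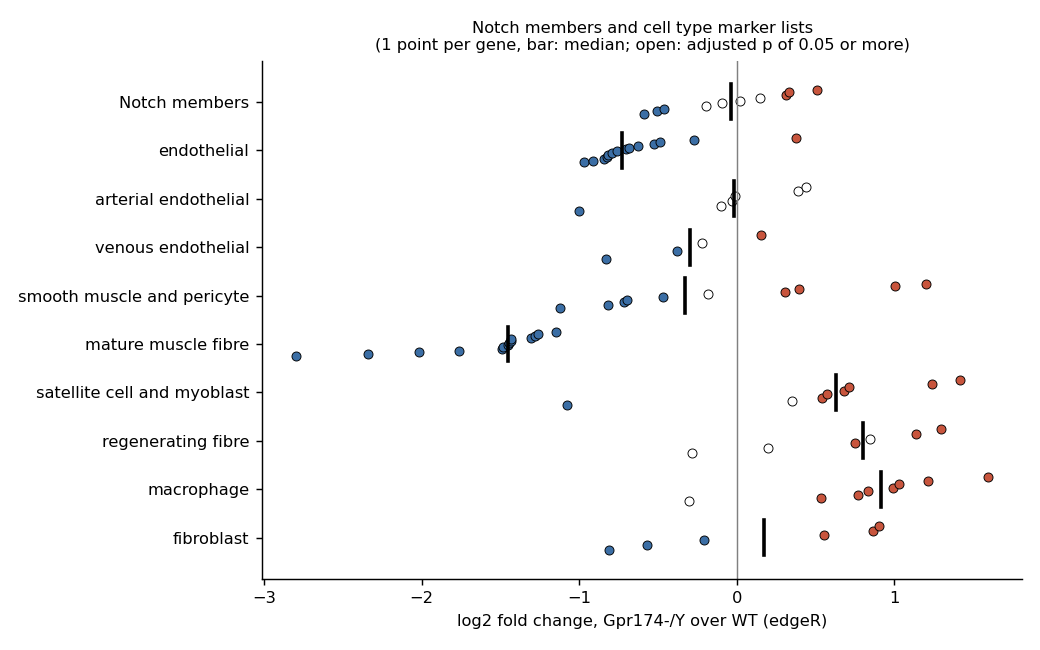
Log2 fold change (x axis, Gpr174-/Y over WT, edgeR with TMM scaling) of the 10 Notch genes and of each gene of the cell type marker lists, 1 point per gene, filled where the adjusted p was under 0.05, with a bar for the median of the list. The Notch genes spread around -0.03, the endothelial list lies at -0.73, mature fibre genes at -1.45 and macrophage genes at 0.92.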

How the data were processed

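RNA of ischemic gastrocnemius from 3 WT and 3 Gpr174-/Y mice was sequenced, on the BGISEQ platform per the methods and with an Illumina kit per the labels. The authors deposited expected counts (estimated reads) for 58843 RefSeq transcripts without normalization, and FPKM and TPM, which the authors scaled for length and library size. The submitters' processing notes name HISAT2 2.0.4, Bowtie2 2.2.5, RSEM 1.2.12 and GRCm39, with no role or order. Strand use is not given in the sources used here. Group averages in the deposited table were not used.

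Groups and replicate numbers were taken from the sample titles. Expected counts of all transcripts with the same Entrez identifier were added and rounded, and 99.7% of the 18089 genes had a symbol. Genes were compared with edgeR 4.0.16 in R 4.3.3 (TMM scaling, filterByExpr, robust quasi-likelihood F-test, Benjamini-Hochberg adjustment over 14395 genes), in place of the DEGseq of the study and with its thresholds (adjusted p 0.05, and 1 for the size of the log2 fold change). The biological coefficient of variation was 0.0983 and the median prior degrees of freedom 2.84. Gene positions are from GENCODE M21 on GRCm38 and promoter windows from RefSeq on GRCm38.p6, given for orientation, with no coordinates converted to or from GRCm39.

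The 10 genes, the pathway and marker lists and the motifs were chosen with earlier results of these data known, the motifs also with the sequences in view. Named genes are the 10, preset pathway genes and any other past both thresholds, and the 2 markers of each list with the largest change among those called. Alternatives were DESeq2 1.42.0 (size factors and Wald test), upper-quartile and total-count scaling, limma 3.58.1 (voom, and log2(FPKM + 1) or log2(FPKM + 0.1) of genes reaching FPKM 1 in 3 or more libraries), other filters, a replicate block, leaving out each library and fits with 2 replicates per group. The test was tested on simulated data. TPM were used only to order levels. 1 of the preset pathway genes is counted in its list but not reported here by name or drawn. Other scripts used Python 3.11.15, numpy 2.4.6, pandas 2.3.3 and matplotlib 3.10.9.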

Additional observations from a re-analysis of the deposited data

How the results depend on the processing

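Across 19 alternatives the 10 Notch genes gave 190 comparisons, of which 153 kept the direction and the side of the threshold, 18 lost the call, 12 gained it and 7 changed direction. The changes of direction were all in genes not called. Dll1 was at 0.19 with total counts, 0.14 with log2(FPKM + 1), 0.16 with log2(FPKM + 0.1) and 0.041 with replicates 2 and 3 only, and Hes1 at 0.083, 0.086 and 0.092 with the first 3 of these. With each library left out in turn, 4 to 8 Notch genes, 17 to 30 other pathway genes (18 without WT replicate 2 and 17 without Gpr174-/Y replicate 2, against 29), 58 to 68 markers and 5457 to 9165 of all genes were called. With replicates 1 and 3 of each group only, 0 Notch genes, 0 other pathway genes, 0 markers and 0 of all genes were called (edgeR, lowest adjusted p 0.0542), while 4 Notch genes were under 0.05 without adjustment. Replicates 2 and 3 only gave 5 Notch genes and 18 other pathway genes, where 41.2% of all genes tested were called. With replicates 1 and 2 only, 9 Notch genes were called, where 63.3% of all genes tested were. None (0 of the 10) passed both thresholds under any alternative. With the replicate number as a block, 5 Notch genes and 6812 of all genes were called, and Jag1 was lost (0.32, adjusted p = 0.0545). Same-numbered libraries did not deviate together (correlations 0.014, -0.057 and -0.002), and 2 of 6 libraries correlated best with their own number. No pairing by number was thus seen, but with 3 libraries per group this check cannot exclude one. The cause of these changes was not tested. With 3 libraries per group, small differences such as those of Notch3 and Hes1 are not resolved. Replicates 1 and 2 of the Gpr174-/Y group differ by little more than counting noise. The p-values of the 6 Notch genes called rest on the same libraries and may be too low if these are not separate animals.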
